A study of Homo sapiens with 36 samples.

Results

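The collagens, laminins, integrins and large matrix glycoproteins of EA.hy926 cells were followed in cultures exposed to PFOA (perfluorooctanoic acid), a fluorinated surfactant that persists in the body. Genes were taken by symbol: the collagen and laminin chains, the integrin chains named by number, and FN1, NID1, NID2, HSPG2, SPARC, FBN1, AGRN, TNC and LOX. Integrin chains whose symbol ends in a letter, such as ITGAV and ITGAM, were not taken. Of 18048 genes with values, 83 were members, from 84 listed symbols, because COL9A1 carried no value. A mean of at least 10 normalised reads was reached by 60 members in at least 1 exposure time and by 50 members at all 3 times, and 23 members stayed below it throughout. EA.hy926 is an established line made by fusing human umbilical vein endothelial cells with the lung carcinoma line A549, so each group stands for 1 hybrid line. The 36 libraries formed 12 groups of 3 biological replicates. Cells received 1, 10 or 100 µM PFOA for 48 h, or 1, 10 or 100 nM PFOA for 6 weeks or for 12 weeks, and each time had its own vehicle control. All groups, the controls included, carried 0.05% DMSO, and all cells were wild type per the labels. Per the labels, long-exposure cultures were harvested at subculture, whereas 48 h cultures were lysed directly in the dish. The labels do not say that the replicates came from separate thaws, so p-values measure the spread between these cultures.

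Endothelial cells rest on a basement membrane in which laminin trimers of an alpha, a beta and a gamma chain and type IV collagen form networks, held together by nidogens and by the proteoglycans perlecan (HSPG2) and agrin (AGRN). Fibronectin (FN1) and fibrillin (FBN1) form fibrils outside the basement membrane, tenascin-C (TNC) and SPARC modulate adhesion, and lysyl oxidase (LOX) crosslinks collagen and elastin. Integrins are heterodimers of an alpha and a beta chain that bind these proteins at the cell surface. ITGB1 is the shared beta chain of most collagen, laminin and fibronectin receptors.

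The libraries held between 17815292 and 19466331 recovered reads, and 14192 to 15050 genes had a read in a library. Members took 0.493% to 1.17% of the reads of a library (median 0.810%). Of 12 endothelial markers, 10 reached a mean of 10 normalised reads: CDH5 (VE-cadherin) averaged 3237 at 48 h, 2174 at 6 weeks and 2853 at 12 weeks, while CLDN5 averaged 0.06 at 48 h and was 0 in the long exposures and KDR stayed at or below 2.34. Of 10 epithelial markers, 5 reached a mean of 10 at 48 h, 5 at 6 weeks and 6 at 12 weeks. The keratin KRT7 averaged between 22390.1 and 23203 over the times. KRT8 averaged 20464 at 48 h, 16998 at 6 weeks and 6837 at 12 weeks, and KRT18 35198, 27217 and 21260 in the same order. EPCAM averaged 10.95, 11.8 and 12.9 and CLDN4 24.1, 27.5 and 15.5, whereas the epithelial cadherin CDH1 was at or below 0.08. Of 12 fibroblast and smooth muscle markers, 5 reached a mean of 10: THY1 averaged 990.2 at 48 h, 1119 at 6 weeks and 689 at 12 weeks, POSTN 715, 298 and 270.0, FAP 204, 159 and 151, ACTA2 309.9, 364 and 986 and TAGLN 142, 154 and 193, in the same order. DCN, LUM and MYH11 each stayed below a mean of 2. Libraries of the same group stood apart from each other. The first principal component of all tested genes took 78.0% of the variance at 48 h, 83.8% at 6 weeks and 69.2% at 12 weeks. Its gene loadings correlated across genes with transcript GC content (Pearson r = 0.64, 0.72 and 0.70 in the same order; genes are not independent replicates). At 6 weeks, replicate 1 of the 1 nM group scored −62.0 on this component while replicates 2 and 3 of the same group scored 63.8 and 116. Groups at the other times were split as well. The scores were 20.5, −77.3 and 121 at 10 µM after 48 h, and 14.6, 114 and −22.1 in the 12-week vehicle cultures. The results at 6 weeks are given with and without 1 nM replicate 1, because the members called changed when it was left out.

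The type IV collagen genes and ITGB1 recur in the results, and their upstream sequence is shown because these starts differ in base composition. COL4A1 and COL4A2, which encode the chains of the common type IV collagen trimer, start head to head on chromosome 13 with 126 bases between them. COL4A5 and COL4A6 share the same arrangement on chromosome X with 379 bases between their starts. The sequences below are RefSeq's on GRCh38.p14: the bases between COL4A1 and COL4A2 (chr13:110307158-110307283, plus strand), and the 250 bases before COL4A6 (chrX:108439459-108439708, minus strand) and ITGB1 (chr10:32958231-32958480, minus strand). Capitals mark matches, on either strand, to the GC box GGGCGG and to CCAAT.
COL4A1-COL4A2: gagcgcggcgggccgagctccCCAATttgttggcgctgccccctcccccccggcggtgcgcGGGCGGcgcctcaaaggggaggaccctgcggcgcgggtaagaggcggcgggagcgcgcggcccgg
COL4A6: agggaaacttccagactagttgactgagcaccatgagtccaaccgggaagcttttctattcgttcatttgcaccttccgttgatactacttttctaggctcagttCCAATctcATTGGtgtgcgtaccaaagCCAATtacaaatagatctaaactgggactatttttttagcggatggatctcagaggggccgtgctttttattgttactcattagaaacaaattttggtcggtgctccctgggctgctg
ITGB1: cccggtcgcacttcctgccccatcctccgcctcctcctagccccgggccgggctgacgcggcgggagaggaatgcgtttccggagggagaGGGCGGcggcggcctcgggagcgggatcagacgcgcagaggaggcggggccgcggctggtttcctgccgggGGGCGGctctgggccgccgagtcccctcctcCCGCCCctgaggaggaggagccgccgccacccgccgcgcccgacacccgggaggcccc
The COL4A1-COL4A2 stretch was 80.2% GC with 1 GC box and 1 CCAAT, and the ITGB1 stretch was 78.4% GC with 3 GC boxes. The COL4A6 stretch was 44.0% GC and held 3 CCAAT matches, of which 1 lies on the other strand. The search also covered the TATA box (TATAAA) and the AP-1 element (TGANTCA), on both strands, and neither was found in the 3 stretches. Of 35116 RefSeq promoters, 42.6% held a GC box, 32% a CCAAT box, 10.7% a TATA box and 6.57% an AP-1 element in the 250 bases before the start. Of the 60 members that reached the mean, 44 had a promoter entry. A GC box was present in 65.9% of these 44, a CCAAT box in 27.3%, a TATA box in 13.6% and an AP-1 element in 2.27%. The members count 1 entry per gene, whereas the shares of all promoters count every entry with no filter on expression. The 2 sets of shares are therefore not like for like. Over windows of 126 bases, 34.6% of all promoters held a GC box and 21.1% a CCAAT box. No promoter was matched for LAMC3 or COL9A3.

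Integrin and laminin chains, with SPARC, were the most abundant members. Levels between genes are given here as normalised reads per kilobase of the longest GENCODE transcript, over all 36 libraries. The laminin-binding and fibronectin-binding integrin chains ITGA3 and ITGA5 had 4009 and 3812 normalised reads per kb, and ITGB1 had 1191, so the shared beta chain lay below both alpha chains. ITGA6, a laminin receptor chain, had 486 per kb. The next beta chains were ITGB3, part of the vitronectin receptor, at 772 per kb, ITGB4, the hemidesmosomal partner of ITGA6, at 603 per kb and ITGB5, another partner of ITGAV, at 555 per kb, whereas ITGB2 had 9.25 per kb. Among laminins LAMB3 had 1561, LAMB1 1498, LAMA4 991, LAMA5 900 and LAMC1 859 per kb, whereas LAMA3, the alpha chain that pairs with LAMB3 in the epithelial-type laminin trimer, had 65.6 per kb. All 12 laminin genes reached the mean at some time, as did 10 of the 11 integrin alpha chains taken. So did 5 of 8 integrin beta chains and 6 of 8 basement membrane collagens. It was reached by 6 of 11 fibrillar collagens and 12 of 25 other collagens.

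**Figure D1:**
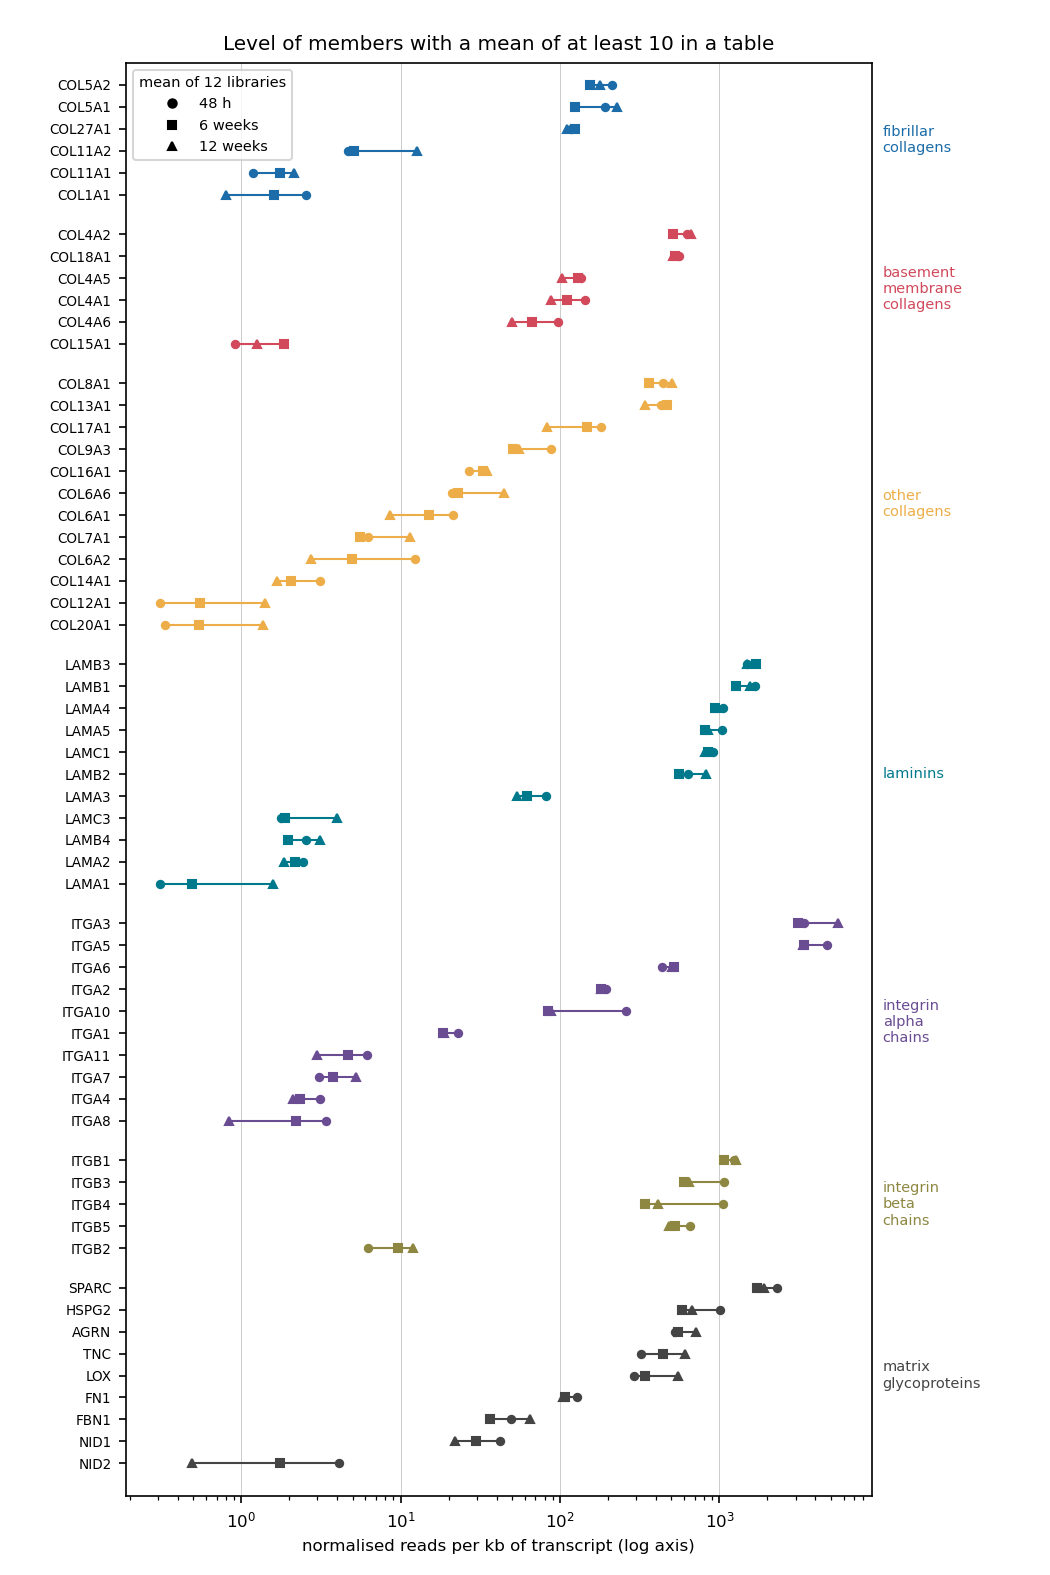
Mean normalised reads per kilobase of transcript (log axis) of members that reached a mean of 10 at 1 or more times, grouped by family; each point is the mean of the 12 libraries of 1 exposure time. ITGA3 and ITGA5 lie highest among the integrins shown and SPARC highest among the glycoproteins.

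Among collagens, the type IV chain COL4A2 had 600.3 normalised reads per kb, and COL18A1, whose cleaved end is the angiogenesis inhibitor endostatin, had 534. COL4A1, the obligate partner of COL4A2, had 114 per kb, and COL4A5 and COL4A6 had 122 and 71.2. COL8A1, a network collagen of the subendothelium, had 436 per kb, the transmembrane collagens COL13A1 and COL17A1 had 412 and 137, and the fibrillar chains COL5A1, COL5A2 and COL27A1 had 181, 181 and 117. The interstitial fibrillar collagens had few reads: COL1A2 had 4 recovered reads in all 36 libraries together, with 32 libraries at 0, COL3A1 had 48 reads, and COL1A1 had 396 with no library at 0. Fewer than 12 reads over all libraries were also counted for COL4A4 (11), COL5A3 (9), COL23A1 (6), COL4A3 (3), COL10A1 (3) and COL19A1 (1). The 23 members below the mean at every time averaged between 0.0242 (COL19A1) and 6.48 (COL9A2) over the 36 libraries, and each of the 83 had at least 1 read in some library. Among the glycoproteins SPARC had 1966 per kb, HSPG2 757, AGRN 598, TNC 458, LOX 396, FN1 113, FBN1 50.03, NID1 31.2 and NID2 2.11.

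The spread between replicates set what could be told apart. The median coefficient of variation within groups was 8.5% for SPARC, 9.9% for LAMA4, 11.7% for LAMC1 and 11.9% for COL17A1. It was 59.5% for ITGA2, 54.8% for ITGA6, 54.4% for COL6A2 and 47.0% for ITGA5. SPARC at 6 weeks shows the tight kind of gene. It had 6093, 6897 and 7200.4 normalised reads at 10 nM, against 5535, 6545 and 5919.9 in the vehicle cultures, which overlap. ITGA5 at the same time had 9713, 10245 and 9604 at 10 nM, against 37415, 13743 and 15476 in the vehicle cultures. All 3 dose libraries lay below the controls, and 1 control lay far above the other 2.

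Some members differed in level between the exposure times. Doses and the way of collecting cells differed between 48 h and the long exposures. At each time the size factors lay nearer to factors computed jointly over the 36 libraries than to factors from that time alone. The levels are set side by side without a test. ITGA10, a collagen receptor chain, averaged 1365 normalised reads at 48 h (range 1049 to 1792), 440 at 6 weeks (295 to 645) and 462 at 12 weeks (165 to 805), so the 48 h range lay apart from both others. ITGB4 averaged 6261, 2011 and 2442 with ranges that overlapped. COL17A1, a hemidesmosomal collagen, averaged 1029, 841 and 470.1, and its 12-week range of 369 to 591 lay below the lowest value at the other times, 690.4. LAMA1, the laminin alpha chain of early embryonic basement membranes, averaged 3.2, 5.1 and 16.4, and its 12-week range of 9.26 to 26.6 lay above the highest value at the other times, 9.19. The other members that reached a mean of 10 at only some times were COL1A1 (17.0, 10.8 and 5.4), COL11A1 (8.7, 12.9 and 15.7), COL15A1 (5.1, 10.2 and 6.9), COL6A2 (42.4, 17.1 and 9.5), COL12A1 (3.6, 6.5 and 16.4), COL20A1 (2.7, 4.4 and 11.1), ITGA4 (13.0, 9.7 and 8.9), ITGA8 (23.0, 14.9 and 5.6) and NID2 (19.7, 8.4 and 2.4), each given as means at 48 h, 6 weeks and 12 weeks. In a bulk sample fewer cells that express a gene and less RNA per cell cannot be told apart.

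After 48 h, the question was whether micromolar PFOA moved these genes in either direction, and few members stood apart from the vehicle cultures. No gene passed an adjusted p of 0.05 in limma (0% of 12233 genes tested) at any of the 3 doses, and none of the 55 members tested did. At an unadjusted p under 0.05 there were 0 members at 1 µM, 1 at 10 µM and 2 at 100 µM, beside 0.049%, 2.82% and 1.99% of all genes. By edgeR there were 0, 1 and 3 members at that level. With adjustment over all genes edgeR called no gene at any dose, and DESeq2 called 1 gene at 1 µM, 1 at 10 µM and 0 at 100 µM, none of them a member. The median log2 difference of the members from the vehicle was −0.05, −0.13 and −0.06, beside −0.01, 0.01 and 0.03 over all genes.

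LAMB4, a laminin beta chain of low abundance, had 13.98, 10.9 and 9.10 normalised reads at 100 µM, against 22.5, 20.2 and 18.3 in the vehicle cultures. All exposed libraries lay below all controls, and the log2 difference was −0.80 (SE 0.30, limma adjusted p 0.993). At 10 µM LAMB4 had 13.6, 13.7 and 12.2 normalised reads, again below all controls, with a log2 difference of −0.59. COL9A3, a chain of the fibril-associated collagen IX, had 171, 159.7 and 193 at 100 µM, against 253, 229 and 360.3 in the vehicle cultures. These groups did not overlap either, and the log2 difference was −0.66 (SE 0.29, adjusted p 0.993). At 10 µM COL9A3 had 217, 129.6 and 231, which overlapped with the controls (−0.56, and −0.30 without replicate 2 of the dose). COL17A1 had 931, 886 and 760.3 at 100 µM, against 1251, 1312 and 1019 in the vehicle cultures, also without overlap (−0.47, SE 0.22, adjusted p 0.993). At 1 µM the members with the smallest p were LAMB4 (−0.44), ITGB2, the leukocyte integrin beta chain (−0.41), COL1A1 (−0.59) and COL7A1, which forms anchoring fibrils (−0.52), all with an adjusted p of 1. Without control replicate 3 the differences were −0.27 for COL1A1 and −0.31 for COL7A1, and without replicate 2 of the dose −0.25 for ITGB2.

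COL13A1, a transmembrane collagen of cell contacts, had 698, 1855 and 349 normalised reads at 10 µM, against 2063, 2043 and 1422 in the vehicle cultures. Replicate 2 of the dose lay among the controls, and the log2 difference of −1.24 (SE 0.50, adjusted p 0.96) was −0.67 without replicate 3 of the dose and −1.88 without replicate 2. COL6A6, a type VI collagen chain, had higher values, with 146, 156 and 647 at 10 µM, against 64.8, 89.5 and 143 in the vehicle cultures. Its log2 difference of 1.38 (SE 0.63) rested on replicate 3 and was 0.68 without it. At 100 µM COL6A6 had 259.7, 445 and 108, which overlapped with the controls (1.29, adjusted p 0.993), and the difference was 0.82 without replicate 2 of the dose.

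At 100 µM, 7 of 55 members (12.7%) lay below all vehicle libraries, COL5A1, COL9A3, COL13A1, COL17A1, LAMB4, LAMA5 and AGRN, and none lay above them. Over all genes 6.46% lay below and 4.32% above. At 10 µM, 4 members lay below and 1 above, beside 3.52% and 2.67% of all genes, and at 1 µM 1 lay below, beside 1.17%. In a line through the vehicle and 3 dose means, the members with the smallest p were LAMB4 at −0.26 log2 units per dose step (SE 0.09), COL9A3 at −0.22 (SE 0.09), COL17A1 at −0.16 (SE 0.07) and COL6A6 at 0.49 (SE 0.20), each with a limma adjusted p of 0.808. The line and each dose share the same controls. In the line 6 members had an unadjusted p under 0.05, in limma and in edgeR alike, beside 4.25% of all genes by limma. Neither tool nor DESeq2 called a gene after adjustment. Across the 55 members the log2 difference correlated with transcript GC content at Pearson r = −0.57 at 1 µM, −0.12 at 10 µM and −0.04 at 100 µM, beside −0.50, 0.24 and 0.22 across all genes.

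**Figure D2:**
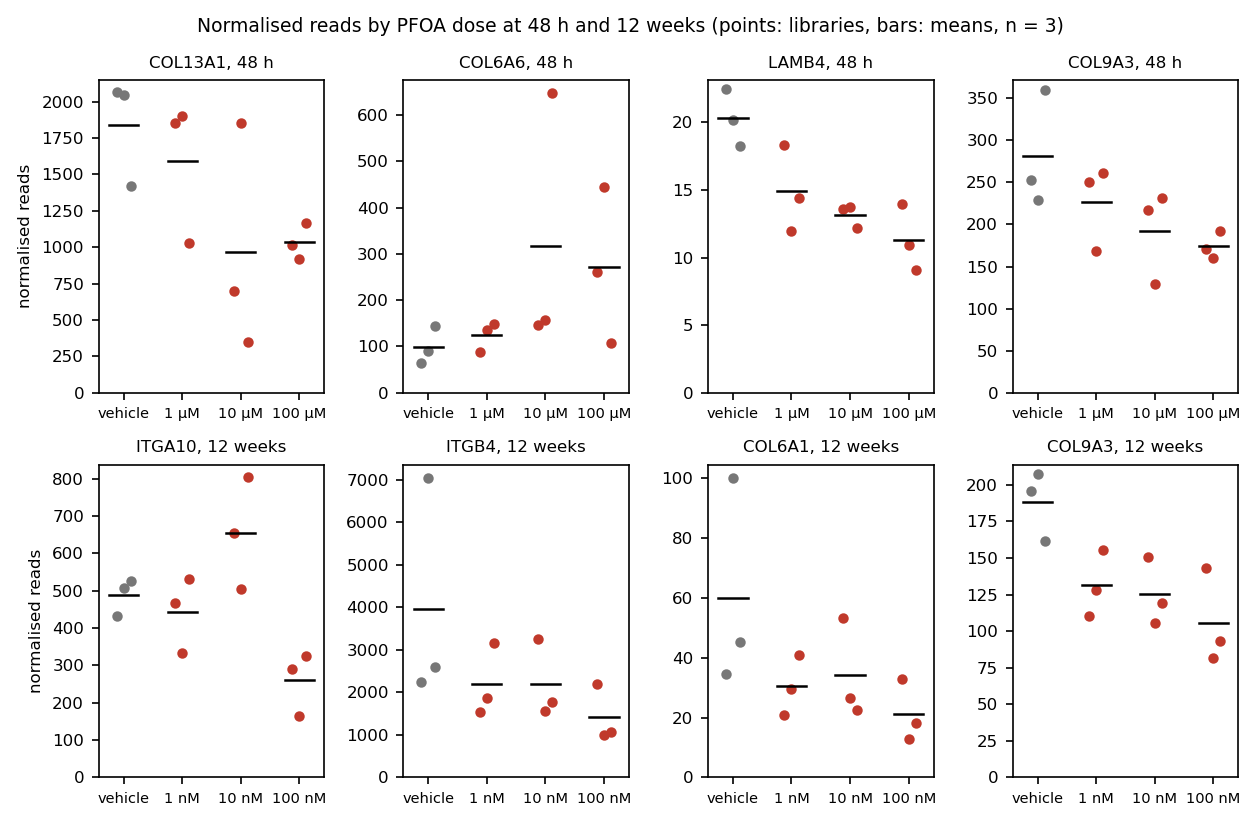
Normalised reads of 4 members at 48 h (upper row) and 4 at 12 weeks (lower row) by PFOA dose; points are libraries and bars are means of 3. LAMB4 and COL9A3 lie below the vehicle at 100 µM, and at 12 weeks ITGA10 is lower at 100 nM but not at 10 nM, while 1 vehicle library sets the high means of ITGB4 and COL6A1.

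Exposure for 6 weeks, at 10 and 100 nM, gave the most members apart from their controls, and also the most genes. At 10 nM 15 of 55 members lay above all vehicle libraries (27.3%) and 9 below (16.4%), beside 30.6% and 29.8% of all genes. Those above included the fibronectin, collagen and laminin receptor chains ITGB1, ITGA2 and ITGA6, and the matrix proteins FN1, TNC and NID1. The collagens COL4A1, COL4A5, COL4A6 and COL5A2 were also among them. LAMC3, COL6A2, COL9A3, ITGA3, ITGA5, ITGA7, LAMB2, HSPG2 and COL11A2 lay below all vehicle libraries. No gene passed in limma over the 12 libraries (0% of 12201 genes), and none of the 55 members tested did. The smallest adjusted p of a member was 0.0953. An unadjusted p under 0.05 was reached by 17 of the 55 members, 14 higher and 3 lower. Among all genes 44% reached it (21.8% higher and 22.2% lower), so the members' count over both directions did not exceed the background. By direction, the higher members were a slightly larger share than among all genes and the lower members a smaller one. By edgeR there were 24 members at that level and 0 genes after adjustment. DESeq2 called 3706 genes (30.4%) and 10 members (18.2%), 7 of them higher (12.7%) and 3 lower (5.45%), beside 11.1% and 19.3% of all genes.

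ITGB1 (chromosome 10, 32900318 to 32958230; gene positions are RefSeq's on GRCh38.p14) had 4101, 7773 and 6462 normalised reads at 10 nM, against 1419, 2639.8 and 2666 in the vehicle cultures. Every dose library lay above every control, and the log2 difference was 1.45 (SE 0.48, limma adjusted p 0.0953). ITGA2 (chromosome 5, 52989352 to 53094779), the alpha chain of a collagen receptor with ITGB1, had 1152, 4152 and 2421 at 10 nM, against 254, 649 and 673 in the vehicle cultures. The groups were again apart, by 2.23 on the log2 scale (SE 0.74, adjusted p 0.0953). FN1 (chromosome 2, 215360865 to 215436068) had 1041, 1915 and 1367 at 10 nM, against 329.8, 673 and 580.4 in the vehicle cultures, a log2 difference of 1.47 (SE 0.54, adjusted p 0.0953). LAMC3 (chromosome 9, 131009174 to 131094473), a laminin gamma chain of low abundance, lay lower. It had 7.79, 3.69 and 5.36 at 10 nM, against 21.0, 15.3 and 16.2 in the vehicle cultures, with no overlap (−1.52, SE 0.52, adjusted p 0.0953).

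The other members at an unadjusted p under 0.05 are named after their values were seen. Of the receptors, ITGA6 had 3091, 6089 and 4558 normalised reads at 10 nM, against 709.6, 2245 and 1827 in the vehicle cultures (log2 difference 1.63). Of the basement membrane genes, COL4A6 differed by 1.29, COL4A1 by 0.89, COL4A5 by 0.82, NID1 by 1.30 and LAMB1 by 1.16. COL4A1 had 709, 1177 and 1072 at 10 nM, against 522, 444 and 609.7 in the vehicle cultures, whereas its partner COL4A2 had 2771, 2899 and 2889, against 5759, 2392 and 2996, which overlap (−0.28). Of the remaining proteins, TNC differed by 1.43, COL5A2 by 1.00, COL13A1 by 0.87, FBN1 by 0.69 and COL8A1 by 0.64, and COL6A2 and COL9A3 by −1.85 and −0.75.

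**Figure D3:**
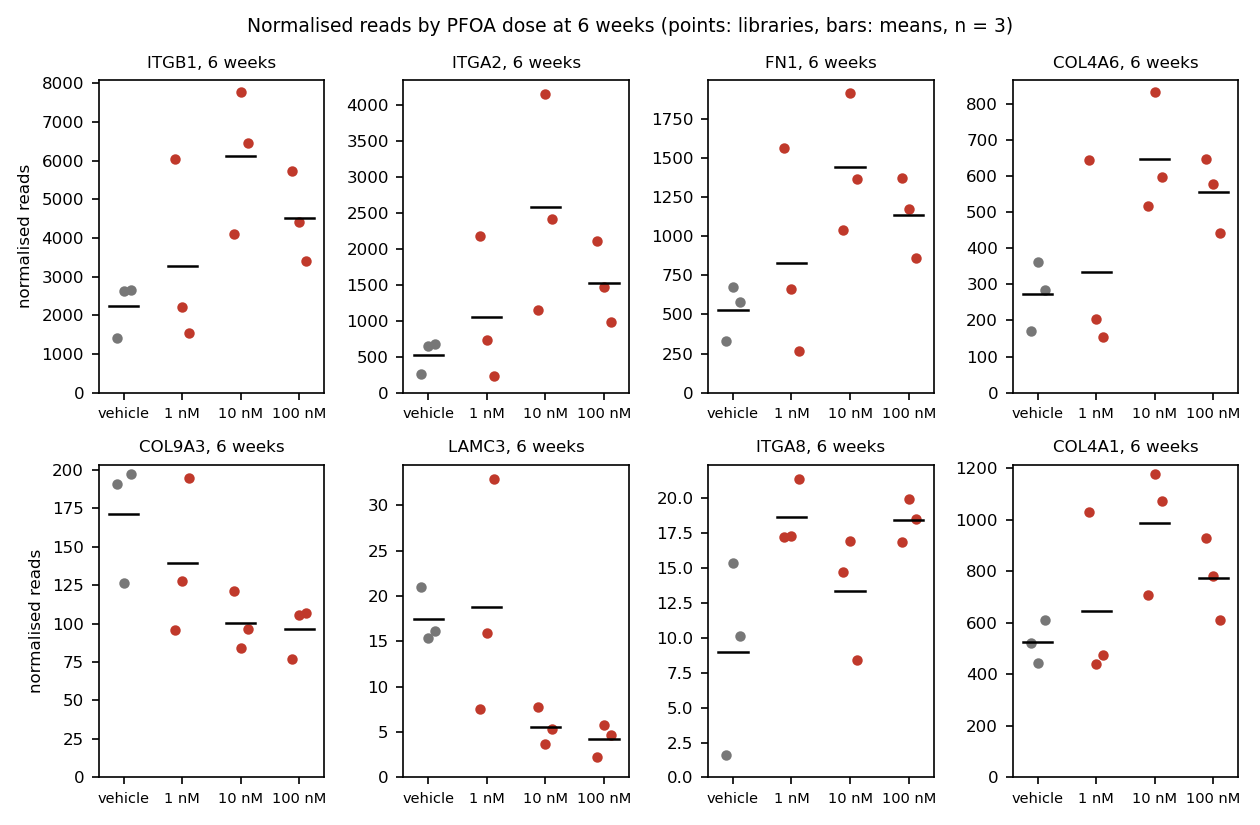
Normalised reads of ITGB1, ITGA2, FN1, COL4A6, COL9A3, LAMC3, ITGA8 and COL4A1 after 6 weeks by PFOA dose; points are libraries and bars are means of 3. The 3 libraries at 1 nM spread from 1542 to 6043 for ITGB1. The 10 nM libraries lie above the vehicle for ITGB1, ITGA2, FN1, COL4A6 and COL4A1 and below it for COL9A3 and LAMC3.

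The families did not move as blocks. The basement membrane collagens had a median log2 difference of 0.79 at 10 nM (4 of 6 higher), the matrix glycoproteins 0.67 (6 of 8 higher), the laminins 0.06 (6 of 11), the integrin alpha chains 0.06 (5 of 9), the integrin beta chains −0.09 (2 of 5), the fibrillar collagens −0.08 (2 of 6) and the other collagens −0.78 (4 of 10). Over all genes the median was 0.05, and over all members 0.06. The groups did not overlap for 15 members that were higher (27.3%) and 9 that were lower (16.4%), beside 30.6% and 29.8% of all genes, so neither share of members exceeded the background. Members together took 0.678% to 0.971% of the recovered reads at 10 nM, against 0.493% to 0.639% in the vehicle cultures. Laminins took 0.224% to 0.319%, against 0.163% to 0.192%. These shares also depend on the reads of other genes. Mitochondrial genes took 5.99% to 7.82% at 10 nM, against 9.24% to 11.4% in the vehicle cultures. Ribosomal protein genes took 9.33% to 13.4%, against 17.2% to 19.4%. On the normalised scale the median difference of the members was the 0.06 given above, near that of all genes.

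At 100 nM the same vehicle libraries served as controls. None of 55 members passed in limma (0% of 12201 genes), 4 had an unadjusted p under 0.05, beside 12.2% of all genes, and edgeR gave 2 at that level. Neither edgeR nor DESeq2 called a gene after adjustment. LAMC3 had 2.30, 5.82 and 4.64 normalised reads at 100 nM, against 21.0, 15.3 and 16.2 in the vehicle cultures. All dose libraries lay below the controls (−1.87, SE 0.52, adjusted p 0.272). COL9A3 had 76.7, 106 and 107, against 191, 126 and 197 in the vehicle cultures, also with no overlap (−0.81, SE 0.32, adjusted p 0.272). COL4A6 had 646, 578 and 441, against 171, 362 and 283, and every dose library was higher (1.07, SE 0.48, adjusted p 0.272). ITGA8, an integrin chain that binds RGD ligands, had 16.9, 20.0 and 18.6, against 1.62, 15.3 and 10.1 in the vehicle cultures (1.32, SE 0.58). The low first control carried most of that difference, which was 0.53 without it. ITGB1 had 5730.1, 4406 and 3414 at 100 nM and FN1 1369, 1175 and 859, all above every control. Of the 55 members, 13 were higher without overlap (23.6%) and 6 lower (10.9%), beside 22.9% and 24.4% of all genes.

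At 1 nM the libraries of ITGB1 read 6043, 2220.1 and 1542, against 1419, 2639.8 and 2666 in the vehicle cultures, and replicate 1 stood far above the other 2. No member of 55 passed in limma (0% of genes), and 1 had an unadjusted p under 0.05, beside 0.254% of all genes; edgeR gave 0 at that level and called no gene, and DESeq2 called 2 genes and no member. ITGA8 had 17.2, 17.3 and 21.4 at 1 nM, against 1.62, 15.3 and 10.1 in the vehicle cultures (1.33, SE 0.58, adjusted p 1), and the difference was 0.54 without control replicate 1. COL15A1, a basement membrane zone collagen, had 9.74, 12.0 and 8.24, against 6.47, 7.67 and 6.07 in the vehicle cultures (0.50). LAMC1, the most widely used laminin gamma chain, had 7006, 7633 and 7094, against 6766, 5821 and 5572 in the vehicle cultures (0.26). These 3 were the members without overlap (5.45%), all higher, beside 0.754% of all genes, and COL14A1 followed with a difference of 0.47 and overlapping groups.

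In the line through the vehicle, 1, 10 and 100 nM, LAMC3 had the smallest p, with a slope of −0.70 log2 units per dose step (SE 0.17, limma adjusted p 0.0979). The next slopes were 0.44 (SE 0.15) for COL4A6, 0.42 (SE 0.15) for ITGB1 and −0.29 (SE 0.10) for COL9A3, with the same adjusted p. An unadjusted p under 0.05 was reached by 18 members, beside 44.6% of all genes, and by 22 members in edgeR. No gene passed in limma or edgeR, and DESeq2 called 3174 genes (26%) and 12 members (21.8%), 4 higher (7.27%) and 8 lower (14.5%), beside 5.1% and 20.9% of all genes.

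Whether members were called at 10 nM changed when 1 nM replicate 1, which is in neither group compared, was left out. Without it the spread shared by the 4 groups was smaller, and limma called 5946 genes (48.7%) and 20 of 55 members (36.4%). The members called higher were NID1, ITGB1, TNC, COL4A6, ITGA2, ITGA6, FN1, COL5A2, COL4A1, LAMB1, COL13A1, COL4A5, COL8A1 and FBN1 (14, or 25.5%, beside 23.9% of all genes), and those called lower were LAMC3, COL6A2, ITGA5, ITGA3, COL9A3 and LAMB2 (6, or 10.9%, beside 24.8%). Their adjusted p ran from 0.00762 for NID1 to 0.0433 for LAMB2. The dose line without that library called 27 members (49.1%), beside 58.1% of all genes, 15 of them higher (27.3%) and 12 lower (21.8%), beside 28.9% and 29.1%. At 100 nM no member and no gene passed without it, and the smallest adjusted p of a member was 0.056, for LAMC3 and COL4A6. At 1 nM no member passed without it either, and 1 gene was called; the differences there were 1.38 for ITGA8, 0.51 for COL15A1, 0.41 for COL14A1 and 0.29 for LAMC1. Without 1 nM replicate 3 instead, the 10 nM comparison called 7 members (12.7%), beside 26.3% of all genes (12.1% higher and 14.1% lower): COL4A6, ITGA6, ITGA2, ITGB1 and FN1 higher, COL6A2 and LAMC3 lower. With only the 10 nM and vehicle libraries in the fit, 13 members (23.6%) passed, 11 higher (20%) and 2 lower (3.64%), beside 38.9% of all genes, 18.3% higher and 20.5% lower.

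**Figure D4:**
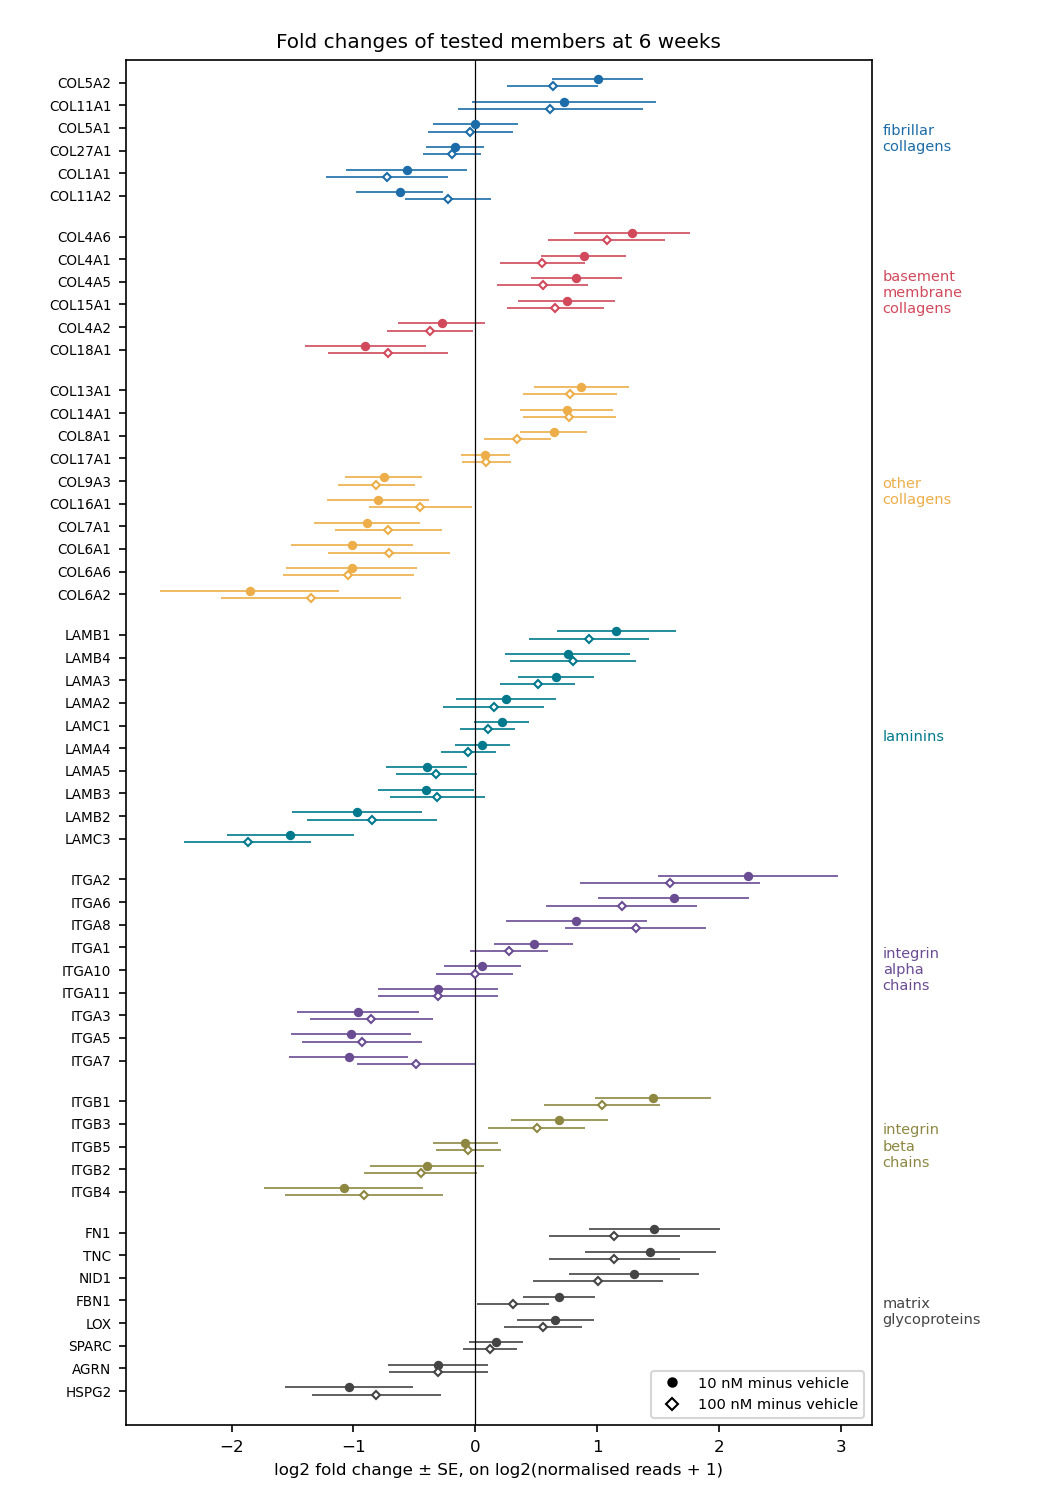
Log2 differences from the vehicle after 6 weeks for members tested, by family; filled circles are 10 nM and open diamonds 100 nM, with bars of 1 standard error. Both doses share the vehicle libraries. ITGA2, ITGA6, FN1, TNC and the COL4A5-COL4A6 pair lie to the right and LAMC3 and COL6A2 to the left.

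Base composition moved with these differences. Across the 55 members the log2 difference at 10 nM correlated with transcript GC content at Pearson r = −0.72, and across 12077 genes at −0.68; at 100 nM the values were −0.69 and −0.68. The members called higher without 1 nM replicate 1 had a median transcript GC content of 48.7%, those called lower 62.8% and the rest 55.2%. The first principal component scored −30.3, −84.3 and −63.9 in the 10 nM libraries, −57.5, −31.8 and −7.74 at 100 nM, and 114, 18.5 and 25.1 in the vehicle cultures. Ribosomal protein genes took 9.33% to 13.4% of the reads at 10 nM and 11.7% to 16.2% at 100 nM, against 17.2% to 19.4% in the vehicle cultures. The summed epithelial markers ran from 20581 to 40902 normalised reads at 10 nM, against 74313 to 142706 in the vehicle cultures, the endothelial markers from 16991 to 21662, against 25127 to 55857, the fibroblast and smooth muscle markers from 1424 to 1822, against 2038 to 3142, and the leukocyte markers from 1399.6 to 2037, against 1603 to 6589, where CD68 was the only one to reach a mean of 10. By gene, 5 of the 10 endothelial markers tested were higher and 5 lower at 10 nM, with a median log2 difference of −0.09, and 3 and 2 had an unadjusted p under 0.05. Of 5 epithelial markers tested 1 was higher and 4 lower (median −1.59), and of 5 fibroblast and smooth muscle markers 2 and 3 (−0.65). The first principal component was computed from the same 12 libraries, dose groups included. All its 10 nM scores lay below all vehicle scores, so the component and the dose cannot be told apart in this comparison. Adding the component to the fit left differences at 10 nM of 0.18 for ITGB1, 0.22 for ITGA2, 0.02 for FN1 and −0.42 for LAMC3. With each library corrected for GC content and length they were 0.70, 1.42, 0.73 and −0.76. COL9A3, at 67.4% GC, had a difference of 0.28 at 100 nM under that correction and of −0.81 without it. The part of base composition in these differences was not tested beyond these values.

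**Figure D5:**
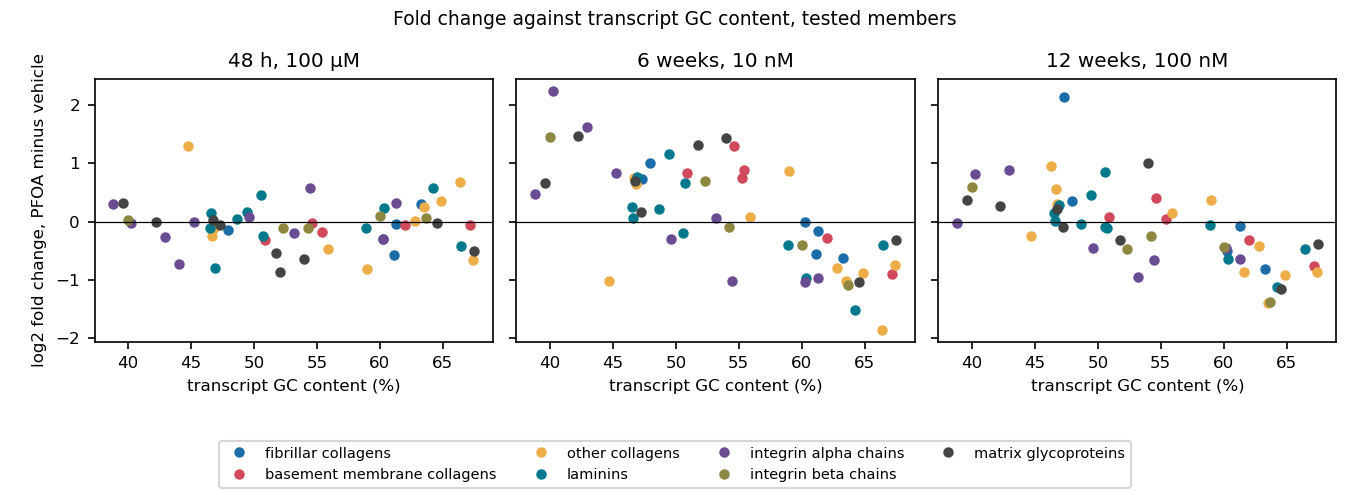
Log2 difference from the vehicle of each member tested against the GC content of its longest transcript (percent), at 48 h and 100 µM, 6 weeks and 10 nM, and 12 weeks and 100 nM. Pearson r over the members is −0.04, −0.72 and −0.68.

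After 12 weeks the members that stood apart from the vehicle cultures were, at 100 nM, ITGA10, COL9A3, ITGB4 and COL6A1, which were lower, and LAMA1, which was higher. No gene passed in limma at any dose (0% of 12304 genes) and none of 54 members tested did. At 1, 10 and 100 nM, 0, 0 and 8 members had an unadjusted p under 0.05, 2 of them higher and 6 lower at 100 nM, beside 0.195%, 1.37% and 2.33% of all genes. By edgeR there were 0, 0 and 7, and 0 genes after adjustment, while DESeq2 called 0 genes at 1 nM, 2 at 10 nM and 1 at 100 nM, none of them a member.

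At 100 nM ITGA10 (chromosome 1, 145891208 to 145910050) had 290.1, 165 and 325 normalised reads, against 431, 507 and 526 in the vehicle cultures. Every dose library lay below every control, and the log2 difference was −0.96 (SE 0.32, limma adjusted p 0.751). At 10 nM ITGA10 had 654, 505 and 805, which reached above the controls. COL9A3 had 143, 81.5 and 93.2 at 100 nM, against 196, 207 and 161 in the vehicle cultures, with no overlap (−0.86, SE 0.30, adjusted p 0.751). It had 151, 106 and 119 at 10 nM (−0.59) and 110.5, 128 and 156 at 1 nM (−0.52), all below every control as well. ITGB4 had 2199, 988 and 1057 at 100 nM, against 2248, 7051 and 2588 in the vehicle cultures (−1.39, SE 0.50, adjusted p 0.751). The second control stood apart, and without it the difference was −0.87. COL6A1, a type VI collagen chain, had 32.8, 13.0 and 18.0 at 100 nM, against 34.5, 100.0 and 45.2 in the vehicle cultures (−1.40, SE 0.51, adjusted p 0.751). The same control library was the high one, and the difference was −0.96 without it.

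Other members at an unadjusted p under 0.05 at 100 nM, named after their values were seen, were COL11A1 (2.13), LAMA1 (0.85), HSPG2 (−1.15) and COL7A1 (−0.92). COL11A1, a fibrillar chain of cartilage, had 26.5, 36.6 and 10.96, against 7.79, 0 and 15.7 in the vehicle cultures, so its counts were few and the groups overlapped. LAMA1 had 18.0, 18.9 and 26.6, against 13.4, 9.26 and 11.1, with no overlap. HSPG2 had 9291, 4062 and 4986, against 8148, 28784 and 8728, where the second control was again the high one. LAMA1 at 10 nM had 22.1, 16.8 and 15.2 (0.64, adjusted p 0.655), and COL11A1 had 7.80, 20.0 and 20.0 (1.58), a difference of 0.38 without the second control, which is listed at 0. At 1 nM the members with the smallest p besides COL9A3 were COL11A1 (1.51), COL6A1 (−0.86) and ITGB4 (−0.72), with an adjusted p of 1. Without the second control these were 0.31, −0.42 and −0.21.

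At 100 nM, 1 member (LAMA1) lay above all vehicle libraries, beside 2.07% of all genes, and 4 (7.41%) lay below, COL6A1, COL9A3, ITGB4 and ITGA10, beside 2.57%. LAMA1 was also the 1 member above the controls at 1 and at 10 nM, beside 1.66% and 2.06% of all genes. COL9A3 lay below the controls at 1 and at 10 nM, beside 0.805% and 1.22% of all genes; the 3 doses share their controls. Family medians at 100 nM were −0.46 for integrin alpha chains, −0.44 for integrin beta chains, −0.25 for the other collagens, −0.07 for fibrillar collagens, −0.05 for laminins, 0.05 for basement membrane collagens and 0.06 for glycoproteins. Over all genes the median was 0.00, and over all members −0.09. In the dose line, slopes per step were −0.26 (SE 0.09) for COL9A3, −0.42 for ITGB4 (−0.26 without the second control), −0.41 for COL6A1 and 0.28 for LAMA1, each with a limma adjusted p of 0.657, and 6 members had an unadjusted p under 0.05, beside 2.22% of all genes. No gene passed in limma or edgeR, DESeq2 called 2, neither a member, and edgeR gave 6 members at an unadjusted p under 0.05. The correlation with GC content at 100 nM was −0.68 over 54 members and −0.67 over 12173 genes. Under the correction for GC content and length the difference at 100 nM was −0.85 for ITGA10, −0.89 for ITGB4, −0.86 for COL6A1 and −0.10 for COL9A3.

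COL9A3 lay below the vehicle mean at every dose of all 3 times. Its 100 µM libraries at 48 h and 100 nM libraries at 6 and 12 weeks all lay under their own controls, which are separate cultures at each time. Under the correction for GC content and length its difference at 48 h was −0.79 at 10 µM and −0.997 at 100 µM. With the same correction it was 0.28 at 6 weeks and 100 nM, and −0.02, 0.18 and −0.10 at 1, 10 and 100 nM after 12 weeks. The gene overlaps TCFL5 on chromosome 20, and use of strand in counting is not given in the sources used here, so reads of the 2 genes may be mixed. Overlap with another RefSeq gene was present for 43 of the 60 members, among them ITGB4 with GALK1 and FN1 with ATIC, and for none of ITGA3, COL6A1, COL7A1, ITGA8 or ITGA10.

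The difference between 12 and 6 weeks was tested as the dose effect at 12 weeks minus the dose effect at 6 weeks, over 24 libraries, 12037 genes and 51 members. No gene and no member passed in limma at 1, 10 or 100 nM (0% of genes). At an unadjusted p under 0.05 there were 0, 0 and 1 members, beside 0.208%, 0.349% and 0.565% of all genes. edgeR gave 0 members at that level and no gene after adjustment, and DESeq2 called 2, 1 and 1 genes, none a member. The 1 member was ITGA10 at 100 nM, where 12 weeks minus 6 weeks was −0.95 (SE 0.44, limma adjusted p 1). At 6 weeks it had 414, 443 and 433 at 100 nM, against 424, 295 and 645 in the vehicle cultures, which overlap. The next members at 100 nM were ITGB3 (−0.97), NID1 (−1.32) and LAMA3 (−0.62). At 10 nM COL11A2 (1.05), COL7A1 (1.03), LAMC3 (1.21) and LOX (−0.69) had the smallest p, with an adjusted p of 0.906, and at 1 nM COL11A1 (1.61), COL6A1 (−0.94), LAMB2 (−0.77) and COL14A1 (−0.75). Single libraries moved many of these: the difference at 1 nM was 0.41 for COL11A1, −0.50 for COL6A1 and −0.18 for LAMB2 without the second 12-week control. At 100 nM it was −0.61 for NID1, −0.50 for ITGB3 and −0.23 for LAMA3 without replicate 2 of the 12-week dose.

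Genes that process, cut or anchor the matrix were counted from lists made for this tissue. At 6 weeks and 10 nM no gene of any list passed in limma. With an unadjusted p under 0.05 as the level, collagen processing and crosslinking enzymes had 3 higher and 6 lower of 22 tested (27 listed; median log2 difference −0.23), matrix proteases and their inhibitors 2 and 2 of 18 (28 listed; 0.35), other matrix proteins 5 and 7 of 24 (38 listed; −0.09), focal adhesion proteins 6 and 3 of 23 (23 listed; 0.04) and TGF-beta signalling genes 3 and 2 of 15 (15 listed; 0.58). Among all genes 21.8% were higher and 22.2% lower at that level, and the median was 0.05. At 12 weeks and 100 nM the corresponding counts were 0 and 0 of 19 (median −0.36), 2 and 2 of 19 (−0.29), 0 and 3 of 26 (−0.60), 0 and 0 of 23 (−0.01) and 0 and 0 of 14 (0.30), beside 0.878% and 1.45% of all genes and a median of 0.00. At 48 h and 100 µM they were 0 and 0 of 22 (−0.07), 0 and 1 of 17 (−0.08), 0 and 1 of 23 (0.06), 0 and 1 of 23 (−0.17) and 1 and 0 of 15 (0.13), beside 0.703% and 1.29% and a median of 0.03. No gene of these lists passed the adjusted threshold in these 3 comparisons.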

How the data were processed

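Messenger RNA of 36 EA.hy926 libraries was read as 150 bp pairs, per the labels' protocols. What the authors deposited is a signal: the count of each gene divided by 1 size factor per library, in 1 table per exposure time. HISAT, Bowtie2, DESeq2 and the build GRCh38.p14 are named without versions, per the submitters' processing notes. How reads were counted, and whether by strand, is not given in the sources used here. Whole reads were recovered from the steps of the signal (100% of values within 0.01 of a whole read). Groups followed the labels, and the samples within a group are called biological replicates there.

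Signal was tested with limma 3.58.1 in R 4.3.3 on log2(signal + 1), a scale that understates changes of low genes, with 1 mean per group over the 12 libraries of a table, for genes with a mean of at least 10. Tests were two-sided, and p-values were Benjamini-Hochberg adjusted over all genes tested, with a threshold of 0.05. An exact permutation test of 3 against 3 could not go below p = 0.1. The dose line is the slope per step through the 4 group means. Each comparison names the 4 members with the smallest p, as none passed; levels name the 3 highest members of each family and all glycoproteins. The result of 1 gene that this rule allows is not reported here. Members and lists were chosen with earlier results of these data known. Alternatives were edgeR 4.0.16 and DESeq2 1.42.0 on recovered reads, pseudocounts of 0.1 and 10, a minimum mean of 50 or none, quantile normalisation, a replicate block, the first principal component as covariate, a loess correction for transcript GC content and length (GENCODE release 29, known for 98.95% of genes tested at 48 h and all 60 members that reached the mean), each library left out, and, added after seeing the data, only the groups compared. Scripts were tested on simulated data.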

Additional observations from a re-analysis of the deposited data

How the results depend on the processing

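Over 60 named differences, 1607 recomputed values included 1577 with the same direction and the same side of the threshold, 24 that passed where the value reported did not, and 6 with the opposite sign. The 6 were all COL9A3 under the correction for GC content and length, alone and with the replicate block: 0.28 at 100 nM after 6 weeks, 0.17 per step in the 6-week dose line and 0.18 at 10 nM after 12 weeks. At 6 weeks and 10 nM, leaving out 1 library at a time gave 0 to 20 members and 0 to 5946 genes called, DESeq2 gave 10 and 3706, and only the groups compared 13 and 4742. In the 6-week dose line the ranges were 0 to 27 members and 0 to 7084 genes, and DESeq2 gave 12 and 3174. Elsewhere no member was called under any alternative, and few genes were. DESeq2 called 2 genes at 1 nM after 6 weeks, at 10 nM after 12 weeks, in the 12-week dose line and in the difference between the times at 1 nM, and 1 gene at 1 and at 10 µM after 48 h, at 100 nM after 12 weeks and in the differences at 10 and 100 nM. The correction for GC content and length called 2 genes at 6 weeks and 10 nM and 2 in the 6-week dose line, and quantile normalisation, and the block with the first component, 1 in that line. At 1 nM after 6 weeks, leaving out 1 library gave 0 to 1 genes. In the difference between the times at 1 nM, edgeR shifted the median of all genes by −0.11 and DESeq2 by −0.12. The calls without 1 nM replicate 1 come with the same group means at 10 nM and in the vehicle and a smaller shared spread; the cause of that library's position was not tested.

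The replicate numbers were not treated as pairs. With group means taken out, same-numbered libraries correlated between −0.861 and 0.862, and 11 of 27 libraries matched their own number best. The first principal component also enters these correlations, so they cannot show whether cultures of 1 number were handled together. With the replicate block alone 0 members and 0 genes were called in all 15 comparisons, and 12 members had an unadjusted p under 0.05 at 6 weeks and 10 nM. Depth limits the low members: LAMC3, LAMB4, COL11A1 and ITGA8 rest on few reads per library.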

Other observations

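Partner chains of 1 heterotrimer or heterodimer did not keep a fixed ratio of transcripts across libraries. Per kilobase, COL4A1 over COL4A2 had a median of 0.197 over all 36 libraries, and both genes start at the ends of the same 126 bases. At 6 weeks it was 0.360, 0.125 and 0.080 at 1 nM, 0.251, 0.399 and 0.364 at 10 nM and 0.346, 0.246 and 0.258 at 100 nM, against 0.089, 0.182 and 0.1998 in the vehicle cultures. The 10 and 100 nM libraries all lay above the controls, and the 1 nM libraries lay on both sides. ITGB1 over ITGA5, the fibronectin receptor pair, was 0.8298, 0.107 and 0.0539 at 1 nM, 0.557, 1.00 and 0.888 at 10 nM and 0.825, 0.509 and 0.408 at 100 nM, against 0.0501, 0.254 and 0.227 in the vehicle cultures. ITGA6 over ITGB4 was 5.27, 0.655 and 0.124 at 1 nM, 2.96, 7.50 and 3.70 at 10 nM and 4.77, 3.03 and 1.64 at 100 nM, against 0.163, 2.44 and 0.736 in the vehicle cultures, where 1 control lay inside the 100 nM range. After 12 weeks the groups overlapped for each of these pairs. COL4A1 over COL4A2 ran from 0.0934 to 0.176 at 1 nM, 0.103 to 0.252 at 10 nM and 0.0906 to 0.228 at 100 nM, against 0.0513 to 0.147 in the vehicle cultures. ITGB1 over ITGA5 ran from 0.1803 to 0.751, 0.1799 to 1.11 and 0.301 to 1.24 in the same order of doses, against 0.0682 to 0.4696. ITGA6 over ITGB4 ran from 0.436 to 2.73, 0.414 to 2.89 and 1.09 to 5.79, against 0.102 to 1.22. COL5A1 over COL5A2 had a median of 1.00 over all libraries, with a range of 0.446 to 3.95. At 6 weeks it ran from 0.446 to 0.620 at 10 nM, against 0.567 to 2.12 in the vehicle cultures, which overlap. The 10 nM and vehicle groups overlapped at 6 weeks for LAMA5 over LAMA4 and LAMC1 over LAMB1 too. The ratio of LAMA3 to LAMB3 had a median of 0.0450, so the beta chain outweighed its alpha partner. At 6 weeks this ratio ran from 0.0427 to 0.0727 at 10 nM, above the 0.0160 to 0.0357 of the vehicle cultures. These ratios have no test. Transcript GC content was 55.4% for COL4A1 and 62.0% for COL4A2, 40.0% for ITGB1 and 54.5% for ITGA5, and its part in the ratios was not tested.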
